A study of Mus musculus with 6 samples.

Results

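The Nduf genes encode nuclear subunits of mitochondrial complex I and the assembly factors that help to build it. They were examined in the quadriceps of AR97Q mice, transgenic mice that model spinal and bulbar muscular atrophy (SBMA), an inherited disease of motor neurons and muscle. A gene was included where the annotation gave a probe of the array, controls left out, a symbol that starts with Nduf. Its measured value played no part in this rule, but the Nduf genes as a set were chosen with earlier results of these data known. The symbol was found for 58 probes of 46 genes, all of which were among the 25005 genes and transcripts tested. These comprised 36 subunit genes of 37 listed, 8 Ndufaf assembly factors, and Ndufa4 and Ndufa4l2, which carry the name and are counted outside complex I here. No probe matched Ndufb1, and none matched the 7 subunits encoded by mitochondrial DNA, which were not analysed here.

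All mice were males on a C57BL/6J background that carried the AR97Q transgene, and tissue was taken at 9 weeks of age. The 3 Exercise mice were trained in a forced running wheel, in daily bouts of 60 min at 5 m/min, 5 days per week, over 4 weeks that began at 5 weeks of age. The 3 Sedentary mice carried the same transgene and did not follow this programme, and with no array of a mouse without the transgene the comparison is one of exercise within the disease model. Each mouse gave 1 array, which the labels do not link to a litter or batch. Skeletal muscle markers were bright on every array, as the level of the whole list below shows.

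Complex I takes electrons from NADH, which the citric acid cycle and fatty acid oxidation supply, passes them to ubiquinone and pumps protons across the inner mitochondrial membrane. Its peripheral arm reaches into the matrix and holds the flavin and the iron-sulfur clusters, and its membrane arm holds the proton pumps encoded by mitochondrial DNA. Accessory subunits surround this catalytic core and stabilize it. Assembly factors bind intermediates and leave the finished enzyme. Muscle that works aerobically is rich in the complex.

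Levels are log2 processed signals relative to the 75th percentile of the array, so 0 is the brightness of that percentile and 1 unit is a factor of 2. They compare arrays for a probe and do not rank genes. A difference is the mean of the Exercise arrays minus that of the Sedentary arrays, on the log2 scale. A gene was called at an adjusted p under 0.05 in limma, adjusted by Benjamini-Hochberg over the 25005 features. Genes said to have risen or fallen are those called higher or lower. With 3 arrays against 3, an exact permutation test of a single gene cannot go below p = 0.1.

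Promoters were read for a view of the letters shared by genes that moved together. RefSeq windows for GRCm38.p6, from 250 bases before to 50 bases after the start, were held for 32 of the 36 subunits, 7 of the 8 assembly factors and 27025 genes in all. They were searched on both strands for GCATGCGC (core of the NRF1 motif), CCGGAAG (the ETS motif that GABP binds), AAGGTCA (the estrogen-related receptor motif) and AAGATGG (YY1). The 250 bases before the start are shown for the subunit with the largest rise (Ndufs7), for the NRF1 and receptor matches among the subunits that led their groups (Ndufa11 and Ndufb4), for the assembly factor with the most matches (Ndufaf4) and for the assembly factor with the smallest difference (Ndufaf7). Each runs 5′ to 3′ on the strand of the gene, with matches in capitals.
Ndufs7 (GRCm38.p6, chr10:80249199-80249448, plus strand): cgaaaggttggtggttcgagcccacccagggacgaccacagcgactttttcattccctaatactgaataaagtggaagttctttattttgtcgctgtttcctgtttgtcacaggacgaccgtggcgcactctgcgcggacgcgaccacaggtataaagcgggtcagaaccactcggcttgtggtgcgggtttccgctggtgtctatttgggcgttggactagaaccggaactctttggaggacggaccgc
Ndufa11 (GRCm38.p6, chr17:56717512-56717761, plus strand): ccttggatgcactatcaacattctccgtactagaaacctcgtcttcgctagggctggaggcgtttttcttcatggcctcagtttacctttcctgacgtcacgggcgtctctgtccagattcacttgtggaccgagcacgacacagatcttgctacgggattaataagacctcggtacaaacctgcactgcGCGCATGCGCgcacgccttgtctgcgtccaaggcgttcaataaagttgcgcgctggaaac
Ndufb4 (GRCm38.p6, chr16:37654369-37654618, minus strand): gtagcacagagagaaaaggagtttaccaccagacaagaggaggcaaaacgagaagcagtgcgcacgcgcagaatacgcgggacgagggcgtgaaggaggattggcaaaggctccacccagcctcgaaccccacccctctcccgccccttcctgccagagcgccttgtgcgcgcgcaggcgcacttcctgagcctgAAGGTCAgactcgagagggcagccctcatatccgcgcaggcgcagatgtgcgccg
Ndufaf4 (GRCm38.p6, chr4:24897833-24898082, plus strand): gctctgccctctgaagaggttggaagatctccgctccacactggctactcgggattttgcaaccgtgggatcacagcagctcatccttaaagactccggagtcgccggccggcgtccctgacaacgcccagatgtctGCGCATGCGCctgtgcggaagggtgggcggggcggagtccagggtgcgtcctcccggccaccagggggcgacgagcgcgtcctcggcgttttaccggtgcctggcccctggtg
Ndufaf7 (GRCm38.p6, chr17:78936885-78937134, plus strand): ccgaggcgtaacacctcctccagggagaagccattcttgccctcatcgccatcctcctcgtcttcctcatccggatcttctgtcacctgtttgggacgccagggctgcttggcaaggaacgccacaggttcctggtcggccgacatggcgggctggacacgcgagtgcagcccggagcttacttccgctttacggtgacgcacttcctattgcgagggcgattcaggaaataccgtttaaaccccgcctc
The matches in Ndufa11 and Ndufaf4 are read on both strands, because the letters of the motif overlap their own reverse complement there.

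GCATGCGC was present in 3 of the 32 subunit windows (9.38%), those of Ndufa6, Ndufa8 and Ndufa11, and in 2 of the 7 assembly factor windows (28.6%), those of Ndufaf4 and Ndufaf5, against 3.05% of all windows. AAGGTCA was in 3 subunit windows (9.38%), those of Ndufb2, Ndufb4 and Ndufs5, in 0 assembly factor windows, and in 5.38% of all. CCGGAAG was in 4 subunit windows (12.5%), 2 assembly factor windows (28.6%) and 9.93% of all. AAGATGG was in 7 subunit windows (21.9%), those of Ndufa3, Ndufa9, Ndufb8, Ndufc1, Ndufs4, Ndufs6 and Ndufs7, in 1 assembly factor window (14.3%), and in 7.28% of all. All of these subunit matches to AAGATGG were on the strand of the gene and lay 22 to 38 bases past the start, outside the stretches printed above. At least 1 of the 4 motifs was found in 17 of the 32 subunit windows, 4 of the 7 assembly factor windows and 6245 of all 27025. The median difference between the groups was 0.62 over the 3 subunits with GCATGCGC and 0.57 over the 29 without, 0.58 with and 0.57 without for both CCGGAAG and AAGGTCA, and 0.65 over the 7 with AAGATGG and 0.54 over the 25 without. A match here is a run of letters, and binding was not measured.

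Across the subunits, all 36 differences were above 0, with a median of 0.56 and a range from 0.31 for Ndufa1 to 0.81 for Ndufs7. Of these genes, 35 were called higher in the Exercise group and 0 lower. The exception was Ndufs1 (adjusted p = 0.0855). Over all features, 11.5% were called higher and 6.12% lower, and the median difference was 0.026. Every Exercise array was above every Sedentary array for 36 of 36 subunits, against 25.0% of all features. The number called changed when a mouse was left out. Leaving out Sedentary mouse 1 gave 34 subunits called higher with a median of 0.63, and leaving out any other single mouse (Exercise 1, 2 or 3, Sedentary 2 or 3) gave 0 in limma, with 35 or 36 at an unadjusted p under 0.05 and medians of 0.51 to 0.58. Those 5 fits also called 0 of all 25005 features higher, with 6686 to 8146 at an unadjusted p under 0.05, and the fit without Sedentary mouse 1 called 13.9% of all features higher. The array barcodes hold a number, read here as the strip of a slide. Sedentary mice 2 and 3 shared a number that the other mice did not have. With the strip as a block, limma called 0 subunits and the median was 0.43. None of the 36 subunits reached a difference of 1 with an adjusted p under 0.05, the study's threshold, which 1.72% of all features passed in this direction. The Ndufaf genes were more varied. All 8 differences were above 0, 3 genes rose, 0 fell, and the median difference was 0.27. Without Sedentary mouse 1, 4 were called, and leaving out any other single mouse gave 0. On all arrays, 4 had an unadjusted p under 0.05 in limma. In bulk tissue a larger share of cells rich in complex I cannot be told apart from more RNA per cell.

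**Figure D1:**
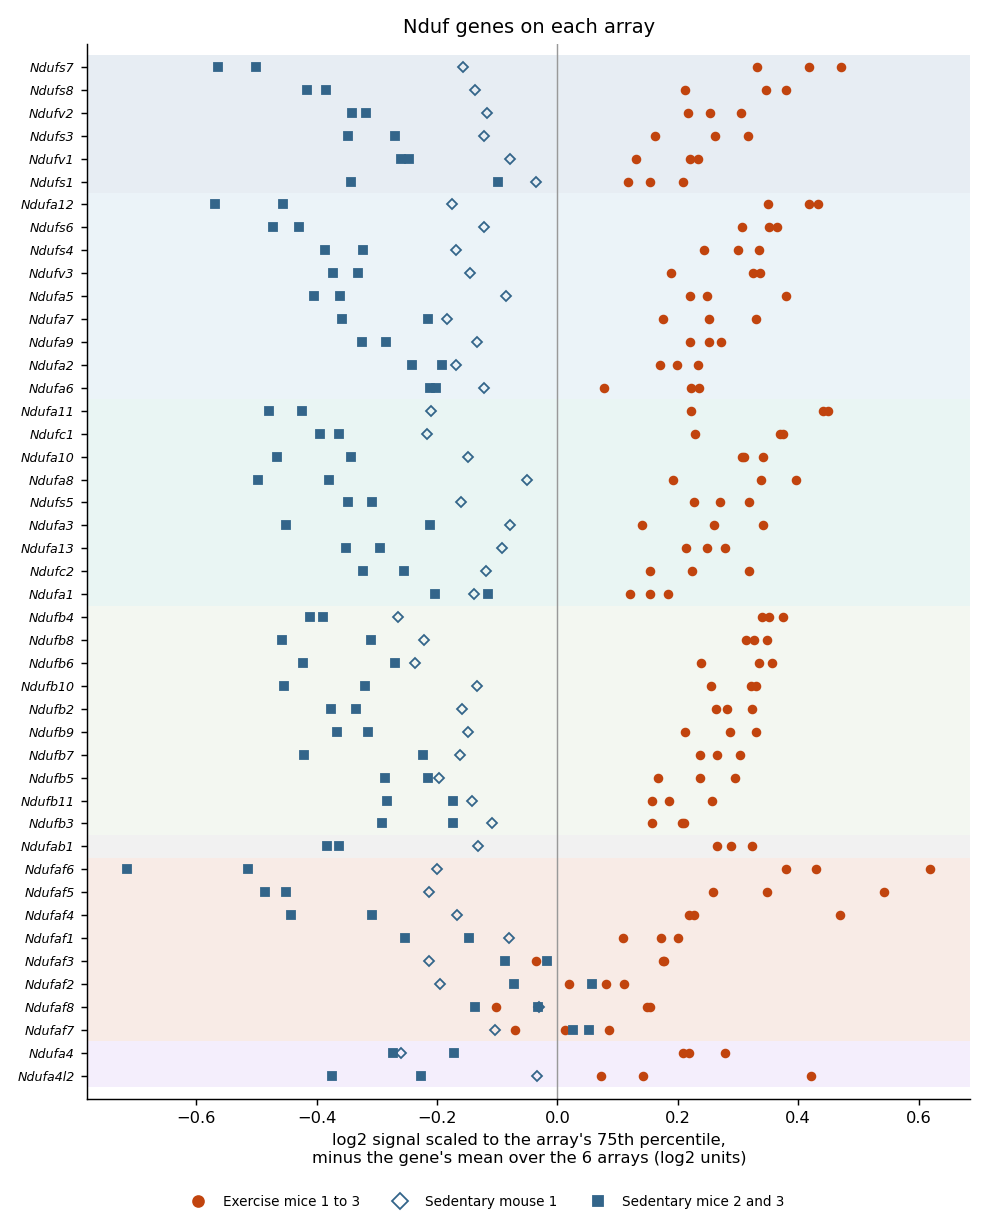
Each row is 1 Nduf gene (45 of the 46 are drawn) and each point 1 array, placed on the x axis by its log2 signal scaled to the 75th percentile of the array, minus the gene's mean over the 6 arrays. Filled circles are the 3 Exercise mice, open diamonds Sedentary mouse 1 and filled squares Sedentary mice 2 and 3, and shading marks the groups of genes in the order of the text. The groups do not overlap in any of the 36 subunits on this scaling, while 4 of the 8 assembly factors overlap, and with no scaling between arrays 9 subunits have a difference below 0.

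These calls and directions hold relative to the scaling of the arrays. Processed signals had a 75th percentile of 251 to 257 on the Exercise arrays and 310 to 384 on the Sedentary arrays. With no scaling, the median of all features moved to -0.45, the subunits had a median of 0.087, 27 of 36 were above 0 and 2 were called higher. With 7 spike-in probes as the scale, the median of all features was -0.51, that of the subunits 0.020, 20 of 36 subunits were above 0 and none was called by limma (0 of 36 also at an unadjusted p under 0.05). Quantile normalization left the median of all features at -0.019, that of the subunits at 0.19, 31 of 36 above 0 and 4 called. The array median, no scaling and spike-in scaling move every feature of an array alike, so the distance of the subunit median above the median of all features, 0.53, is the same in them by construction. Where it could change, it was 0.21 with quantile normalization, with 31 of 36 subunits above the median of all features, and 0.38 with normexp background correction, with 36 of 36. Over all features, 2868 were called higher and 1530 lower with the 75th percentile, 2680 and 875 with the array median, 1865 and 1363 with quantile normalization, 1172 and 3201 with the deposited values as given, 617 and 11280 with no scaling, and 343 and 10584 with spike-in scaling.

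**Figure D2:**
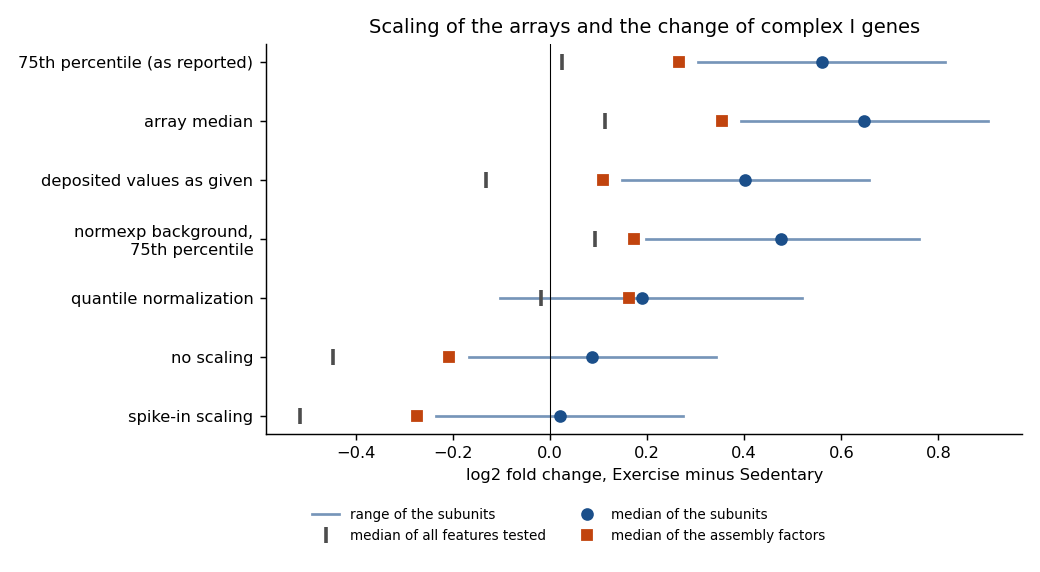
The x axis is the log2 difference between Exercise and Sedentary arrays, and each row is 1 way to scale or background-correct the arrays. Circles are the median of the 36 subunits with a line for their range, squares the median of the 8 assembly factors and bars the median of all 25005 features. The distance from the bar to the circle is fixed by construction where a whole array is shifted, and is shorter with normexp and quantile normalization. The range of the subunits crosses 0 with quantile normalization, no scaling and spike-in scaling, and the assembly factor median is below 0 with the last 2.

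Among the 7 core subunits of the peripheral arm, which carry the catalytic centres, 6 rose and the median difference was 0.52. Ndufs7 holds the iron-sulfur cluster next to the ubiquinone site, and its level was 7.98, 8.03 and 7.89 on the Exercise arrays against 7.40, 7.06 and 7.0 on the Sedentary arrays. Ndufs8, which binds a pair of clusters on the way to that site, had 7.15, 7.12 and 6.98 on the Exercise arrays against 6.63, 6.35 and 6.39 on the Sedentary arrays. Both genes were separated between the groups, with Sedentary mouse 1 nearest to the Exercise mice. Their differences were 0.81 ± 0.13 (SE), adjusted p = 0.0235, and 0.63 ± 0.11 (SE), adjusted p = 0.0241, in that order.

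Other core genes form the NADH end of the arm and its link. Ndufv1, which binds NADH and the flavin, had levels of 7.68, 7.67 and 7.58 on the Exercise arrays against 7.37, 7.20 and 7.19 on the Sedentary arrays. Its partner Ndufv2 carries an iron-sulfur cluster and had 7.41, 7.36 and 7.33 on the Exercise arrays against 6.99, 6.79 and 6.77 on the Sedentary arrays. Both rose, Ndufv1 by 0.39 ± 0.09 (adjusted p = 0.0371) and Ndufv2 by 0.52 ± 0.09 (adjusted p = 0.0253). Ndufs3, a structural core subunit, had 7.53, 7.48 and 7.38 on the Exercise arrays against 7.10, 6.95 and 6.87 on the Sedentary arrays, a difference of 0.49 ± 0.10 (SE), adjusted p = 0.0277. Ndufs1, the large subunit that carries several clusters, gave 6.59, 6.55 and 6.64 on the Exercise arrays against 6.40, 6.09 and 6.34 on the Sedentary arrays. Its Sedentary values were spread over a wider range than its Exercise values, and the difference of 0.32 ± 0.11 (SE), adjusted p = 0.0855, did not pass the threshold. The differences of the 7 core genes thus ran from 0.32 to 0.81, and whether Ndufs7 and Ndufs1 differ in response was not tested.

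All 9 accessory subunits of the peripheral arm rose, with a median of 0.57. Ndufa12, a small subunit near the core, had the largest difference, with levels of 7.79, 7.78 and 7.71 on the Exercise arrays against 7.18, 6.90 and 6.79 on the Sedentary arrays. Ndufa6, of the LYR protein family, had the smallest, with 8.14, 8.15 and 8.0 on the Exercise arrays against 7.80, 7.71 and 7.72 on the Sedentary arrays. Neither gene overlapped between the groups, and the differences were 0.80 ± 0.12 (SE), adjusted p = 0.0234, and 0.36 ± 0.09 (SE), adjusted p = 0.0405. The rest lay between them at 0.40 for Ndufa2, 0.50 for Ndufa9, 0.51 for Ndufa7, 0.57 for both Ndufa5 and Ndufv3, 0.59 for Ndufs4 and 0.68 for Ndufs6. Ndufs4, a subunit whose loss gives a mouse model of Leigh syndrome, and Ndufs6, which binds zinc, stand at the NADH end. Ndufa9 sits close to the ubiquinone site.

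In the proximal membrane arm, 9 of 9 accessory subunits rose and the median was 0.54. The leading gene was Ndufa11, a membrane subunit, at 5.44, 5.45 and 5.22 on the Exercise arrays against 4.79, 4.58 and 4.52 on the Sedentary arrays. Ndufa1, a short X-linked subunit with 1 membrane helix, was the lowest in difference of all 36 subunits, at 7.77, 7.83 and 7.80 on the Exercise arrays against 7.51, 7.44 and 7.53 on the Sedentary arrays. Even so, the 2 groups of mice were separate for Ndufa1, and the differences were 0.74 ± 0.12 (SE), adjusted p = 0.0234, and 0.31 ± 0.08 (SE), adjusted p = 0.0445. Between them were Ndufc2 at 0.46, Ndufa3 and Ndufa13 at 0.49 each, Ndufs5 at 0.54, Ndufa8 at 0.62, Ndufa10 at 0.64 and Ndufc1 at 0.65. Ndufa13 is also known as GRIM-19, and Ndufa8 and Ndufs5 face the intermembrane space. Ndufa8 had the widest error of the 9, with an SE of 0.14 and an adjusted p of 0.0343.

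For the distal membrane arm, 10 of 10 Ndufb genes rose, with a median of 0.57. Ndufb4 led at 8.28, 8.26 and 8.25 on the Exercise arrays against 7.64, 7.52 and 7.49 on the Sedentary arrays, values that differed by less than 0.04 among the Exercise mice. Ndufb3 was the smallest at 6.63, 6.63 and 6.58 on the Exercise arrays against 6.31, 6.13 and 6.25 on the Sedentary arrays. The differences of 0.71 ± 0.08 (SE), adjusted p = 0.0234, and 0.38 ± 0.09 (SE), adjusted p = 0.0343, bounded those of Ndufb11 (0.40), Ndufb5 (0.46), Ndufb7 (0.54), Ndufb9 (0.55), Ndufb2 (0.58), Ndufb10 (0.60), Ndufb6 (0.62) and Ndufb8 (0.66). A second, dim probe of Ndufb8, on another transcript, had a difference of 0.34, and the gap of 0.32 between the probes was the widest within a gene. The annotation also names Ndufb4b and Ndufb4c, for which no probe was matched, and a share of signal from near-identical copies in the value of Ndufb4 cannot be told from these arrays. Ndufab1, the acyl carrier protein that joins both arms and also serves fatty acid synthesis in mitochondria, had 7.86, 7.92 and 7.89 on the Exercise arrays against 7.46, 7.23 and 7.21 on the Sedentary arrays, a difference of 0.58 ± 0.10 (SE), adjusted p = 0.0239.

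The gene groups of the 2 arms therefore had medians between 0.52 and 0.57, and every subunit interval lay above 0 on this scaling. The 95% interval was 0.50 to 1.13 for Ndufs7 and 0.12 to 0.49 for Ndufa1. The 36 subunits lie on 15 chromosomes. Over them, probe brightness and difference had a Pearson r of -0.13 and a Spearman rho of -0.08, which is a description over genes read on the same 6 arrays.

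**Figure D3:**
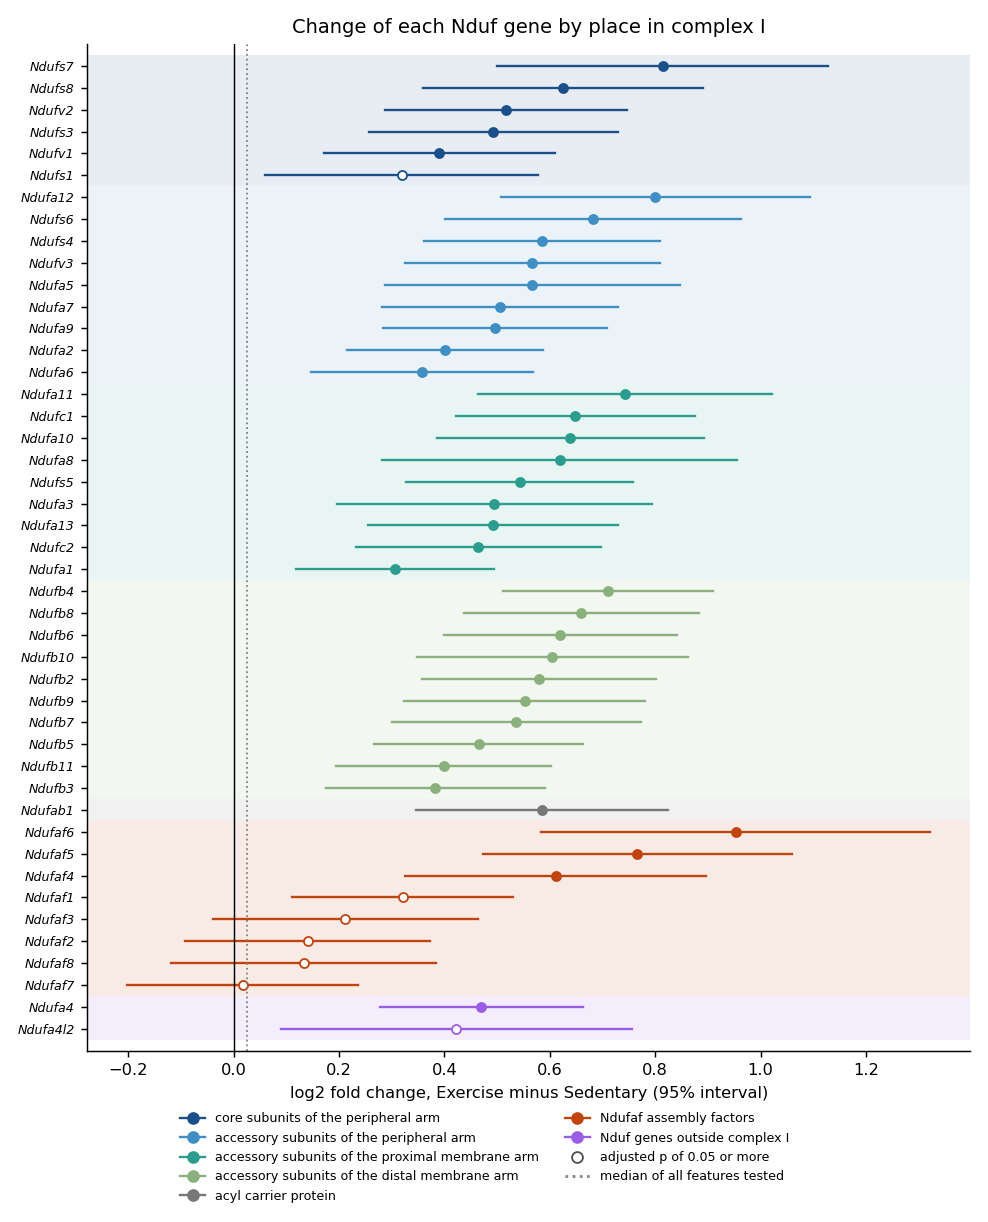
Points are the log2 difference between 3 Exercise and 3 Sedentary mice for 45 of the 46 Nduf genes and lines their 95% interval from limma, coloured by place in complex I. Filled points have an adjusted p under 0.05, open points do not, and the dotted line is the median of all 25005 features. The subunits form 1 band between 0.31 and 0.81 on the 75th percentile scaling, of which 16 fall below 0 with spike-in scaling, while the assembly factors span 0.02 to 0.95.

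Of the assembly factors, Ndufaf6, Ndufaf5 and Ndufaf4 rose. Ndufaf6, which acts early in assembly, had levels of 2.92, 2.68 and 2.73 on the Exercise arrays against 2.10, 1.78 and 1.58 on the Sedentary arrays. Ndufaf5, which hydroxylates an arginine of Ndufs7, had 3.38, 3.10 and 3.19 on the Exercise arrays against 2.63, 2.35 and 2.39 on the Sedentary arrays. Ndufaf4, a partner of Ndufaf3 in an early intermediate, had 3.20, 2.95 and 2.96 on the Exercise arrays against 2.57, 2.29 and 2.42 on the Sedentary arrays. These 3 genes were separate between the groups, and Sedentary mouse 1 was again the highest of its group. The differences of 0.95 ± 0.15 (SE), adjusted p = 0.0236, then 0.77 ± 0.12 (SE), adjusted p = 0.0234, and 0.61 ± 0.12 (SE), adjusted p = 0.0265, included the largest of all 46 Nduf genes, 0.95 (1.94-fold) for Ndufaf6.

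Ndufaf1, which helps to assemble the membrane arm, was separate between the groups but missed the threshold, with 3.74, 3.65 and 3.71 on the Exercise arrays against 3.46, 3.28 and 3.39 on the Sedentary arrays and a difference of 0.32 ± 0.09 (SE), adjusted p = 0.0516. The other 4 overlapped. Ndufaf3 had 2.28, 2.29 and 2.07 on the Exercise arrays against 1.89, 2.09 and 2.02 on the Sedentary arrays (0.21 ± 0.10 (SE), adjusted p = 0.19). Ndufaf2, which binds a late intermediate in the place of Ndufa12, had 2.57, 2.54 and 2.47 on the Exercise arrays against 2.26, 2.38 and 2.51 on the Sedentary arrays (0.14 ± 0.10 (SE), adjusted p = 0.33). Ndufa12 itself rose by 0.80, as given above. Ndufaf8, a partner of Ndufaf5, had 2.44, 2.44 and 2.19 on the Exercise arrays against 2.26, 2.26 and 2.15 on the Sedentary arrays (0.13 ± 0.10 (SE), adjusted p = 0.388). Ndufaf7, a methyltransferase, had 2.92, 2.85 and 2.76 on the Exercise arrays against 2.73, 2.89 and 2.86 on the Sedentary arrays (0.02 ± 0.09 (SE), adjusted p = 0.906), with a 95% interval of -0.20 to 0.24. Its second probe gave -0.05, the only case among the 11 genes with several kept probes in which the signs differed. Factors described as partners thus had unlike values, 0.77 for Ndufaf5 beside 0.13 for Ndufaf8 and 0.61 for Ndufaf4 beside 0.21 for Ndufaf3, and the difference within each pair was not tested. With no scaling or spike-in scaling, Ndufaf1, Ndufaf2, Ndufaf3, Ndufaf7 and Ndufaf8 had differences below 0, and with no scaling Ndufaf7 was called lower.

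Outside complex I, Ndufa4, which is now counted as a subunit of complex IV, had 7.61, 7.68 and 7.62 on the Exercise arrays against 7.14, 7.13 and 7.23 on the Sedentary arrays and rose by 0.47 ± 0.08 (SE), adjusted p = 0.0239. Ndufa4l2, its paralogue known as a target of hypoxia signalling, had 2.54, 2.82 and 2.47 on the Exercise arrays against 2.37, 2.03 and 2.17 on the Sedentary arrays, a difference of 0.42 ± 0.14 (SE), adjusted p = 0.0798. Across all 46 Nduf genes, 39 were called higher, 0 lower, and 42 were separate between the groups. The shares over all features were 11.5% called higher, 6.12% lower and 25.0% with every Exercise array above every Sedentary array.

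The subunits also shared an order of the mice. Sedentary mouse 1 was the highest of its group in 35 of the 36 subunits and in 9786 of all 25005 features, and Exercise mouse 3 was the lowest of its group in 29 and in 8662. Relative to each gene's mean, the 36 subunits averaged 0.30, 0.29 and 0.23 on the Exercise arrays and -0.15, -0.33 and -0.35 on the Sedentary arrays. Spread was wider in the Sedentary group for 34 of 36 subunits and 13271 of all features, with a median SD of 0.117 against 0.049. By the number in their barcodes, read here as a strip of a slide, the arrays fall in 2 strips. Sedentary mouse 1 shares a strip with the 3 Exercise mice while Sedentary mice 2 and 3 are on the other. Against Sedentary mouse 1 alone, within that strip, the median difference was 0.43 and all 36 subunits were above 0 (0.20 to 0.62), while the median of all features was 0.030. For the 8 assembly factors the within-strip median was 0.29. In the fit with the strip as a block, 32 subunits had an unadjusted p under 0.05, the lowest adjusted p among the Nduf genes was 0.153, and of all features 0 were called higher, 3 lower and 4827 had an unadjusted p under 0.05.

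The probes of the subunits were among the brighter ones, with mean levels of 5.0 to 8.91, and bright probes moved upward on this scaling in general. Among the 13432 features with a mean level under 0 the median difference was -0.05 and 7.21% were called higher. This share was 14.7% at levels of 2 to 4, 26.7% at 5 to 6, 31.7% at 6 to 7, 47.7% at 7 to 8 and 61.8% at 8 or more, where the median difference was 0.45. Within the whole range of the subunits, 34.0% of 1657 features were called higher with a median of 0.22, against 35 of 36 subunits with a median of 0.56. That background is dimmer than the subunits, of which 4 lay at levels of 5 to 6, 6 at 6 to 7, 19 at 7 to 8 and 7 at 8 or more. Most thus lay where 47.7 or 61.8% of features were called higher, with medians of 0.31 and 0.45. The assembly factors had levels of 2.11 to 3.54, where the median of all features was 0.07. What part of the differences follows from brightness was not tested.

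**Figure D4:**
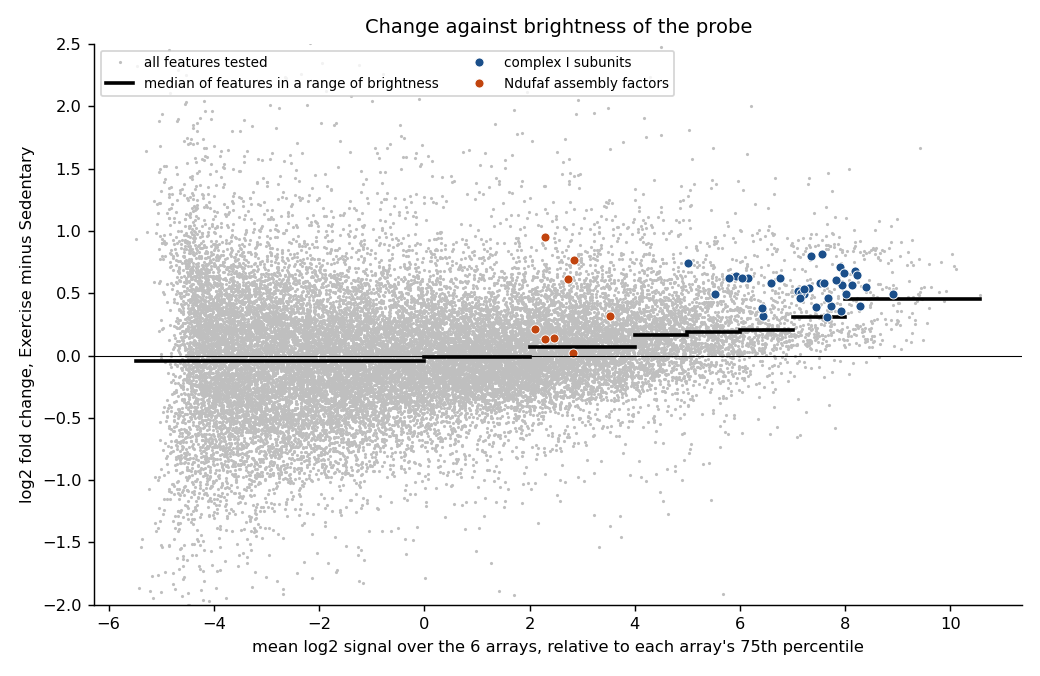
Each grey point is 1 of 25005 features, with its mean log2 signal over the 6 arrays on the x axis and its log2 difference between Exercise and Sedentary arrays on the y axis, and 51 features lie outside the axis. Black bars are the medians of the features within ranges of brightness, which climb from -0.05 to 0.45. Most subunits, drawn as blue points, sit above the bar of their range, as do most assembly factors, drawn as orange points.

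Genes that work beside the Nduf genes were counted for context. Of 12 complex I assembly factors without the Nduf name, 4 rose, 0 fell, and the median was 0.26. These were Timmdc1 (0.77), Tmem126a (0.65), Ecsit (0.64) and Dmac1 (0.41), all of which act on membrane arm intermediates. The respiratory complexes that follow complex I had similar medians, 0.53 for complex III (9 of 9 higher), 0.46 for complex IV (9 of 12) and 0.49 for ATP synthase (14 of 15). In complex II, which feeds electrons in beside complex I, 3 of 4 rose with a median of 0.47, and Sdha, its flavoprotein, had a difference of 0.16 (adjusted p = 0.215). Cox8a of complex IV went the other way, with 6.90, 6.99 and 6.88 on the Exercise arrays against 7.01, 7.45 and 7.36 on the Sedentary arrays, and did not pass the threshold (-0.35, adjusted p = 0.112). Cox6a1 of the same complex was also below 0 (-0.09, adjusted p = 0.604), with overlap between the groups. Among 12 enzymes of the citric acid cycle and pyruvate dehydrogenase, which include the main sources of NADH, 6 rose and the median was 0.37. The 12 genes of iron-sulfur cluster assembly, which supplies the clusters of the core subunits, had 5 that rose and a median of 0.28. Iba57 of this list was below 0 (-0.10, adjusted p = 0.765). Of the mitochondrial import and outer membrane genes, 6 of 11 rose, with a median of 0.42. In all of these lists limma called 0 genes lower on this scaling, and 1, Cox8a, was lower at an unadjusted p under 0.05. Over all features 11.5% were called higher, a share that rose with brightness from 14.7% at levels of 2 to 4. It was 47.7% at 7 to 8, with a median difference of 0.31, and 61.8% at 8 or more, with 0.45. Complexes III and IV and ATP synthase had mean levels of 7.5 to 8.5. Whether any list exceeded probes of like brightness was not tested.

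**Figure D5:**
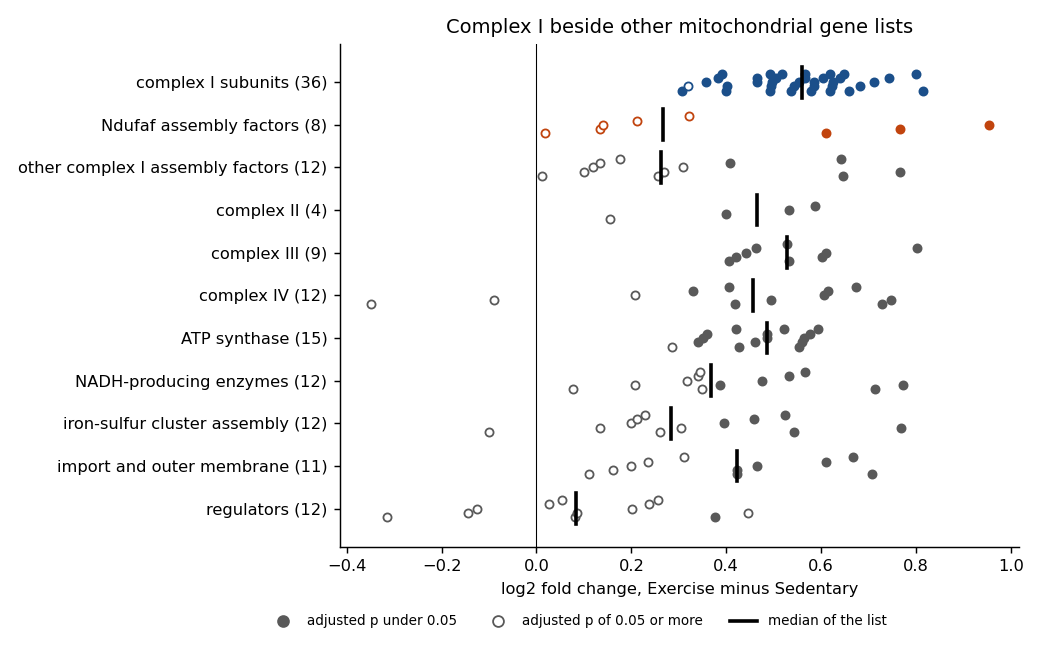
Points are the log2 differences between Exercise and Sedentary arrays of single genes in each list, with the number of genes tested in brackets, filled where the adjusted p was under 0.05, and bars are the medians. The subunits of complex I (0.56), complex III (0.53) and ATP synthase (0.49) lie furthest right, and the regulators (0.08) lie nearest to 0. Scaling moves all points together by about 0.5 to the left with no scaling or spike-in scaling.

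Of 12 regulators of nuclear respiratory genes, 1 rose, 0 fell, 3 were higher at an unadjusted p under 0.05, and the median was 0.08. The share called higher over all features was 11.5%, and no difference between the regulators and the subunits was tested. Esrra, the estrogen-related receptor alpha that acts on many oxidative genes, rose from 5.64, 5.43 and 5.41 on the Sedentary arrays to 5.85, 5.88 and 5.88 on the Exercise arrays (0.38 ± 0.09, adjusted p = 0.0434). Ppargc1a, the coactivator PGC-1 alpha, had 2.85, 2.70 and 2.73 against 2.78, 2.64 and 2.61, which overlap (adjusted p = 0.555). The largest difference of the list was that of Ppargc1b (0.45, adjusted p = 0.139). It was separate between the groups, as were Tfam (0.26, adjusted p = 0.0874) and Tfb2m (0.20, adjusted p = 0.119), and none of these 3 was called. Of the 12 regulators, 9 had differences above 0 and 3 below. The lowest of those below 0 was Esrrg, another estrogen-related receptor, at -0.32 (adjusted p = 0.286), with overlap between the groups. Values of -0.13 for Nrf1 (adjusted p = 0.357) and -0.14 for Gabpa (adjusted p = 0.434) also missed the threshold. These are transcript levels, and the activity of the factors was not measured.

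Markers of the fibres and of other cells were set beside the subunits, each as the mean level of the list over the range of its 3 arrays. Skeletal muscle markers were at 8.75 to 8.87 on the Exercise arrays and 7.95 to 8.29 on the Sedentary arrays, with 5 of 7 called higher. Des and Actn2 were not called, and Actn2 went the other way (-0.15, adjusted p = 0.325). Fast-twitch markers were at 8.80 to 9.03 against 7.69 to 8.38, with 8 of 10 called higher. Tnnt3 and Tnnc2 stand in both of these lists. Slow-twitch markers were at 1.88 to 3.44 against 3.09 to 3.63, with 2 of 6 called lower. Over all features, 11.5% were called higher and 6.12% lower, and at levels of 8 or more 61.8% were called higher. As lists, skeletal muscle and fast-twitch markers moved in the direction of the subunits and slow-twitch markers in the opposite one. Their part in the result was not tested. Adipocyte markers were at 2.41 to 3.98 against 3.54 to 3.91, with Lep called higher and none lower out of 6. The other 5 had differences below 0, and the median of the list was -0.85. The highest of the Exercise values was that of mouse 3, the mouse with the lowest subunit levels of its group. Exercise mouse 3 was also the highest of its group in the skeletal muscle, fast-twitch and slow-twitch lists. A link of these levels with the subunits was not tested. Red blood cell markers were at 3.92 to 4.38 against 3.20 to 4.20, with 0 of 4 called by limma and 1 higher at an unadjusted p under 0.05. Of the markers of macrophages (8), endothelium (5), fibroblasts (6) and brown adipocytes (2), limma called none, and 0 had an unadjusted p under 0.05, over levels of 2.42 to 2.72 against 2.46 to 2.77, 1.49 to 1.88 against 1.56 to 1.76, 5.89 to 6.05 against 5.85 to 6.31, and -1.51 to 1.36 against -0.34 to 0.69. Schwann cell and nerve markers were at 0.96 to 1.21 against 1.36 to 1.62, with 1 of 6 called lower, and smooth muscle markers were at 3.45 to 3.74 against 3.72 to 4.17, with 1 called higher and 1 lower of 5.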

How the data were processed

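RNA from the quadriceps of 6 mice was labelled with 1 dye and hybridized to Agilent mouse arrays, 1 per mouse. The authors extracted signals with Feature Extraction 12.1.0.3, per their processing notes, and deposited a scanner file per array whose processed signal is a background-subtracted intensity on a linear scale. They also deposited a table of intensities, which equals the processed signal times 1 factor per array (1.33 to 1.88). The paper used iDEP, called genes at FDR under 0.05 with a minimum of 1 for the log2 fold change in either direction, and states no scaling.

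Here, log2 of the deposited intensities was taken after control spots (3671 of 62976) and outlier spots were left out, spots of a probe were averaged, and the 75th percentile of each array was subtracted. A probe was kept if well above background on 3 or more arrays (32726 of 56605, with 22 left out for a missing value). Scanner files hold no gene names, so accessions without versions were matched to RefSeq's table for GRCm38.p6, used for names and promoters only. A match was found for 34566 probes, and the other 22039 are listed under the identifiers of the array. The brightest probe stood for a gene, and 57 of the 58 Nduf probes passed the filter. Between 54.6 and 59.9% of probes were well above background per array and 0 spots were saturated. The number of arrays, 3 per group, limits the precision.

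The group difference was fitted in R 4.3.3 by limma 3.58.1 (lmFit with eBayes, all 6 arrays, no covariates, two-sided, Benjamini-Hochberg over 25005 features). The procedure was run on simulated data with changes larger than that of any Nduf gene and no shifts of whole arrays. That run cannot show how well differences of the size reported here are found. The p-values measure the spread between these mice. Alternatives were quantile, median, spike-in (7 probes) and no scaling, normexp with an offset of 50, other filters and probe choices, the deposited table, blocks for replicate number and strip, the methods' t-test, a trended and robust eBayes, array weights, other thresholds, and each array left out. The deposited table rescaled to the 75th percentile and the brightness background were added after seeing the data.

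The Nduf genes and all lists were chosen with earlier results of these data known. Values per array are given for core subunits, the largest and smallest difference in each subunit group, all Ndufaf genes, Ndufa4, Ndufa4l2 and Ndufab1, and other genes, chosen after their values were seen, where they go against their list or are few. Values of 1 core subunit are not reported here on their own, and the counts and medians include it.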

Additional observations from a re-analysis of the deposited data

How the results depend on the processing

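The counts of Nduf genes called (39), of subunits called higher (35) and of assembly factors called higher (3) depended on the scaling. They were 7, 4 and 3 with quantile normalization, 4, 2 and 1 with no scaling (which called 1 Nduf gene, Ndufaf7, lower), 0, 0 and 0 with spike-in scaling, and 22, 20 and 2 with the deposited table as given. The median differences over all Nduf genes (0.54), subunits (0.56) and assembly factors (0.27) were 0.18, 0.19 and 0.16 with quantile normalization, 0.067, 0.087 and -0.21 with no scaling, 0.00058, 0.020 and -0.27 with spike-in scaling, and 0.38, 0.40 and 0.11 with the deposited table. The array median gave 34, 30 and 3. These settings move all values of an array together, except for quantile normalization. Quantile normalization gave differences below 0 for Ndufa1 -0.10, Ndufa13 -0.030, Ndufa2 -0.025, Ndufa6 -0.097, Ndufaf7 -0.088 and Ndufb11 -0.028. No scaling gave Ndufa1 -0.17, Ndufa2 -0.072, Ndufa4 -0.0034, Ndufa4l2 -0.050, Ndufa6 -0.12, Ndufaf1 -0.15, Ndufaf2 -0.33, Ndufaf3 -0.26, Ndufaf7 -0.46, Ndufaf8 -0.34, Ndufb11 -0.074, Ndufb3 -0.090, Ndufb5 -0.0081, Ndufc2 -0.0085, Ndufs1 -0.15 and Ndufv1 -0.083. Spike-in scaling gave Ndufa1 -0.23, Ndufa13 -0.047, Ndufa2 -0.14, Ndufa3 -0.045, Ndufa4 -0.070, Ndufa4l2 -0.12, Ndufa6 -0.18, Ndufa7 -0.034, Ndufa9 -0.043, Ndufaf1 -0.22, Ndufaf2 -0.40, Ndufaf3 -0.33, Ndufaf7 -0.52, Ndufaf8 -0.41, Ndufb11 -0.14, Ndufb3 -0.16, Ndufb5 -0.075, Ndufb7 -0.0028, Ndufc2 -0.075, Ndufs1 -0.22, Ndufs3 -0.047, Ndufv1 -0.15 and Ndufv2 -0.023. The deposited table gave Ndufaf2 -0.018, Ndufaf7 -0.14 and Ndufaf8 -0.025. Ndufaf7 was also below 0 with normexp background (-0.038), the mean of probes (-0.014), the probe with the largest SD (-0.046) and array weights (-0.014), and it ran from -0.031 to 0.057 with 1 array left out, below 0 without Exercise mouse 1 or Sedentary mouse 1.

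The replicate number as a block left every difference as it was and limma called 0, 0 and 0, with 36 subunits at an unadjusted p under 0.05 and a lowest adjusted p of 0.0606, and it called 0 of all 25005 features, with 8591 at an unadjusted p under 0.05. The numbers do not pair the mice by any label, and the deviations of same-numbered arrays had correlations of 0.015, 0.085 and 0.036. The strip as a block also called 0, 0 and 0, with medians of 0.43 over all Nduf genes and 0.43 over the subunits, the same values as against Sedentary mouse 1 alone. The methods' t-test with Benjamini-Hochberg called 12, 11 and 0, with 36 subunits at an unadjusted p under 0.05 and 1.75% of all features called higher, and with a minimum difference of 1 the counts were 0, 0 and 0. Leaving out 1 array at a time gave 0 to 39 Nduf genes, 0 to 34 subunits and 0 to 4 assembly factors called, all at 0 except without Sedentary mouse 1, and medians of 0.50 to 0.59, 0.51 to 0.63 and 0.24 to 0.30. The causes were not tested, other than that a left-out array also lowers the number of mice. Filters on dim probes, other probe choices, normexp, array weights and eBayes with trend and robust gave 33 to 36 subunits called higher. Of all features, these settings called 10.1 to 24.7% higher, against 11.5% in the main fit, with the most for normexp. The assembly factors had dimmer probes than the subunits, with mean levels of 2.11 to 3.54 against 5.0 to 8.91. Their median SD was 0.124 against 0.049 in the Exercise group and 0.113 against 0.117 in the Sedentary group. Whether brightness bears on their counts was not tested.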
